A study of Mus musculus with 6 samples.

Results

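Interferon-induced GTPases are represented here by 10 mouse genes, fixed by name: the guanylate-binding protein (GBP) genes Gbp2, Gbp3, Gbp5, Gbp6 and Gbp7, and the immunity-related GTPase (IRG) genes Irgm1, Irgm2, Igtp, Iigp1 and Ifi47. All 10 had a row among the 24063 gene symbols of the deposited count table, and all 10 passed the filter on low counts that left 13679 symbols. RNA was sequenced from bone marrow LSK cells, the Kit- and Sca1-positive population without lineage markers that contains haematopoietic stem cells and early progenitors, in 3 libraries labelled knockout (Arid2fl/fl:MxCre+) and 3 labelled control (MxCre+ without the floxed alleles), on a background given as C57/BL6. Every mouse of both groups carried the MxCre transgene and received pIpC, a synthetic double-stranded RNA, at 6 to 8 weeks of age, with the marrow taken 6 weeks after the injection. Arid2 encodes a subunit of the PBAF chromatin remodelling complex. MxCre is driven by the interferon-responsive Mx1 promoter and is active in other interferon-responsive tissues as well as in blood cells, and pIpC works by inducing interferon, so the controls had been exposed to the same inducer as the knockouts and no library from uninjected mice was analysed here.

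GBPs and IRGs are large GTPases that cells make after interferon gamma, and to a lesser degree after type I interferon, when factors downstream of the interferon receptors bind their promoters. In mouse cells they gather on the membranes around intracellular bacteria and parasites, break these open and feed inflammasome and autophagy pathways. The IRGM proteins (Irgm1, Irgm2 and Igtp, also called Irgm3) hold the effector IRGs inactive on the cell's own membranes, and Irgm1 is known to be needed in mice to keep haematopoietic stem cells quiescent and to limit their response to interferon.

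Sequences at the start sites are shown because interferon acts on these genes through promoter elements, and those of the 2 members that passed the test below are given with 4 others for comparison. RefSeq windows (GRCm38.p6, 250 bases before to 50 after each start) were found for 8 of the 10 members, all but Gbp6 and Iigp1, with 9 windows in all because Gbp3 has a pair. They were searched on both strands for the core of the interferon-stimulated response element, TTTCNNTTT, and for the core of the gamma-activated site, TTCNNNGAA. Each of the 8 genes held the first in at least 1 window, against 10.6% of the 32851 windows of all genes, and 4 genes (Gbp5, Gbp7, Igtp and Irgm2) held the second, against 8.3% of all windows. No match to one overlapped a match to the other in these windows. A match describes letters and shows no binding. Capitals mark the matches, and each stretch is written 5′ to 3′ on the gene's own strand.
Gbp5 (chr3:142496684-142496893, plus strand): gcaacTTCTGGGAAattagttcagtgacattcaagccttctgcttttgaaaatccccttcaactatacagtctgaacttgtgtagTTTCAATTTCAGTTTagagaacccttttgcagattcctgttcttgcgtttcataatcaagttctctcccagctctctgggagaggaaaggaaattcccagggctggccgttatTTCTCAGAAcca
Ifi47 (chr11:49076337-49076546, plus strand): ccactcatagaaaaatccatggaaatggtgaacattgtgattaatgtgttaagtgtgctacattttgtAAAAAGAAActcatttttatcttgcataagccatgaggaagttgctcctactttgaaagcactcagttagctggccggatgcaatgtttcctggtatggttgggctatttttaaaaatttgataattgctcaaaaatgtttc
Irgm1 (chr11:48871431-48871530, minus strand): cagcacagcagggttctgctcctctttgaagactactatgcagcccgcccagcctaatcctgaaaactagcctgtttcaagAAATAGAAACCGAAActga
Igtp (chr11:58199446-58199545, plus strand): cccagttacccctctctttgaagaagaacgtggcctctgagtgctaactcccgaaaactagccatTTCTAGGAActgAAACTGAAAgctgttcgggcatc
Irgm2 (chr11:58214867-58214966, plus strand): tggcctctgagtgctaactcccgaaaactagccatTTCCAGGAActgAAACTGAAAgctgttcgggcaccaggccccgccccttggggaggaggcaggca
Gbp7 (chr3:142530226-142530325, plus strand): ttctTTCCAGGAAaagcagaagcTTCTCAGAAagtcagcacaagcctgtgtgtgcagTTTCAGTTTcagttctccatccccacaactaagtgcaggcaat

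In the Gbp5 window, 2 overlapping response element matches lay 165 and 159 bases before the start, and gamma-activated matches lay 245 and 52 bases before it. Ifi47 had 1 response element match, 182 bases before the start, and no gamma-activated match within its 300 bases. The neighbouring genes Igtp and Irgm2 had the same arrangement, a gamma-activated match closely followed by a response element match. These began 45 and 33 bases before the start in Igtp, and 75 and 63 in Irgm2. This was not particular to the pair. Among further GTPase genes on chromosome 11, Tgtp1 (88 and 76), Tgtp2 (81 and 69) and Gm12185 (86 and 74) had it too.

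The libraries held 12408966 to 28185678 counted reads. Counts of Arid2 over the whole gene did not separate the groups (156 ± 6.15 CPM in knockout and 155.8 ± 8.46 CPM in control libraries, SD, n = 3 each; CPM are counts relative to library size, with TMM scaling), and a count over the whole gene cannot show the loss of one floxed exon, so directions below rest on the labels. By Xist and Y-linked counts the 3 knockout libraries and control replicate 2 came from females and control replicates 1 and 3 from males, so a fit with sex as a term compares the knockouts with 1 control library, and sex and genotype cannot be fully told apart. Sca1, a marker of the sort, is encoded by Ly6a, which had 13.5 ± 1.57 CPM in knockout and 20.0 ± 2.10 CPM in control libraries. Its log2 fold change was −0.56 (SE 0.13, edgeR adjusted p = 0.0378, n = 3 each), lower without overlap. Kit, the other positive marker of the sort, was also lower without overlap, with means of 439 and 557 CPM in the same order. The log2 fold change of Kit was −0.34 (SE 0.10, edgeR adjusted p = 0.0814), which did not pass at 0.05. DESeq2 called both genes lower, and edgeR called neither with any 1 library left out. Nothing in the labels ties libraries to separate animals or litters, though control libraries of both sexes cannot all come from 1 mouse. The p-values therefore refer to the spread among the 6 libraries, part of which may be technical. In bulk RNA, fewer cells that express a gene and less RNA per cell cannot be told apart.

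Per length of the longest coding transcript in GENCODE M21, by which levels were divided, the IRG genes Ifi47 and Irgm1 were the most abundant of the 10. The order depends on that choice of length. All annotated exons together cover 5810 bases in Irgm1 (longest coding transcript 2259) and 3265 bases in Gbp3 (2682). By the length of all exons, Irgm1 would lie below Gbp3 in both groups. Ifi47 had 46.2 ± 2.50 CPM per kilobase in knockout and 58.9 ± 2.93 in control libraries, and Irgm1 had 34.2 ± 3.49 and 29.8 ± 2.13 in the same order. By the longest coding transcript, Ifi47 exceeded Irgm1, and Irgm1 exceeded Gbp3 (23.0 ± 2.90 in knockout and 21.1 ± 2.50 in control libraries). There was no overlap between libraries within either group. Below these, Gbp2, Igtp, Gbp7, Gbp5 and Irgm2 lay between 10.7 and 19.5 CPM per kilobase on average in knockout libraries and between 8.68 and 15.8 in controls, and their order differed between the groups. Neighbours in that order overlapped, except that Gbp7 lay above Gbp5 in all knockout libraries and above Irgm2 in all control libraries. Iigp1 (5.07 ± 1.69 in knockout, 6.19 ± 2.88 in control libraries) and Gbp6 (3.47 ± 2.01 and 1.45 ± 0.939 in the same order) were the least abundant. They overlapped each other in knockout libraries and not in control libraries.

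Between the groups, 1 of the 10 GTPase genes was higher in knockout libraries (Gbp5) and 1 lower (Ifi47), and 8 did not pass the test (edgeR quasi-likelihood test, Benjamini-Hochberg adjusted p under 0.05 over all 13679 symbols). Over all symbols tested, 3.85% were higher and 4.58% lower by the same rule, 8.42% together, and that share is the background for a count of 2 in 10. The median log2 fold change of the 10 genes was 0.17, against −0.002 for all symbols tested, and 8 of the 10 values were positive. All 5 GBP values were positive (median 0.39), and 3 of the 5 IRG values (median 0.05). The groups did not overlap for Gbp5 and Ifi47 alone among the 10, that is 1 higher and 1 lower, against 15.1% and 16.1% of all symbols tested (31.2% together).

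**Figure D1:**
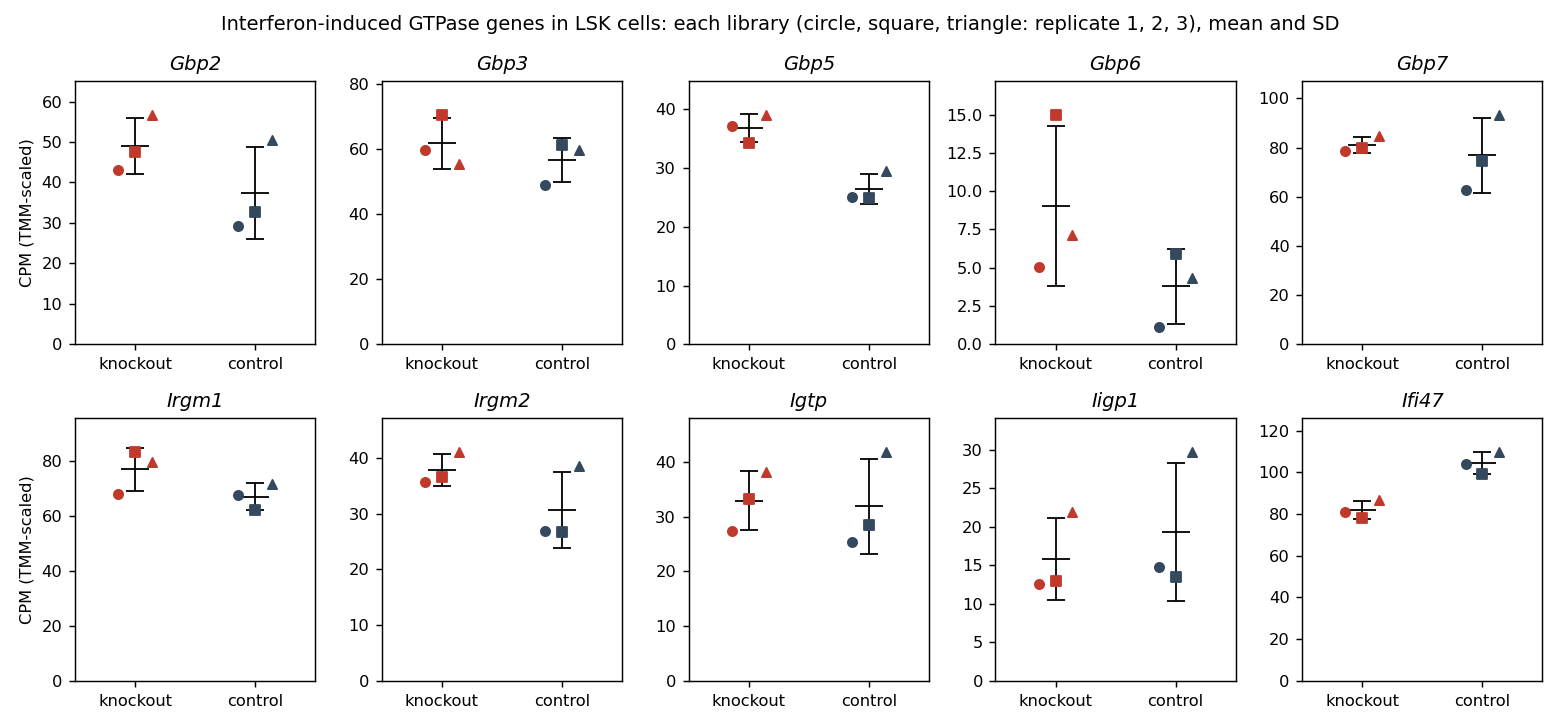
Level of each of the 10 GTPase genes in every library, in CPM on a linear axis from 0, with knockout on the left and control on the right of each panel; circles, squares and triangles are replicates 1, 2 and 3, and bars are the mean and SD (n = 3). All knockout values lie above all control values for Gbp5 and below them for Ifi47, and the groups overlap in the other 8 panels.

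Gbp5 (ENSMUSG00000105504, chr3:142493978-142522344, plus strand, GRCm38) promotes assembly of the NLRP3 inflammasome in macrophages. It had 37.2, 34.3 and 39.0 CPM in knockout replicates 1, 2 and 3, against 25.1, 24.9 and 29.5 CPM in control replicates 1, 2 and 3. Every knockout library was above every control library, and female control replicate 2 was the lowest of the 6. On the log2 scale the fold change was 0.48 (SE 0.10, edgeR adjusted p = 0.0261, n = 3 each), a ratio of 1.39 with a 95% confidence interval of 1.19 to 1.63. With the sex term it was 0.56 with an adjusted p of 0.175. The size held when any 1 library was left out (0.43 to 0.56), but the adjusted p was above the threshold in 5 of these 6 fits (0.0573 to 0.0808) and below it only without control replicate 3 (0.0161).

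Ifi47 (ENSMUSG00000078920, chr11:49076587-49096974, plus strand), also called Irgd, is an IRG of the effector kind that is recruited to parasite vacuoles. It had 80.8, 78.0 and 86.7 CPM in knockout replicates 1, 2 and 3, against 104.0, 99.3 and 109.7 CPM in control replicates 1, 2 and 3. Here every knockout library was below every control library, the opposite of Gbp5. This was a log2 fold change of −0.35 (SE 0.07, edgeR adjusted p = 0.0204, n = 3 each), a ratio of 0.784 with a 95% confidence interval of 0.704 to 0.873. With the sex term it was −0.28 with an adjusted p of 0.299. Leaving out knockout replicate 1, knockout replicate 2 or control replicate 1 gave adjusted p of 0.068, 0.0894 and 0.0626, with log2 fold changes of −0.34, −0.32 and −0.35.

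Ifi47 lies on the same strand as Olfr56, whose annotated span overlaps it, and 3.71% of the 50-base windows of its longest transcript also occur in Olfr56 transcripts. Olfr56 had 11.6, 11.7 and 15.9 CPM in knockout replicates 1, 2 and 3 and 17.2, 17.0 and 16.6 CPM in control replicates 1, 2 and 3, a log2 fold change of −0.39 (SE 0.15, edgeR adjusted p = 0.138) in the same direction as Ifi47. The rule for reads that match both genes was not stated in the labels or file headers. Gbp5 shared 0.898% of its windows with another gene.

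The other 4 GBP genes did not pass the test. Gbp2 (ENSMUSG00000028270, chr3:142620602-142638008, plus strand), which in mouse cells is recruited to pathogen vacuoles, had 43.1, 47.5 and 56.6 CPM in knockout replicates 1, 2 and 3, against 29.1, 32.6 and 50.4 CPM in control replicates 1, 2 and 3. Control replicate 3 lay inside the knockout range and the other controls below it. The log2 fold change was 0.39 (SE 0.20, edgeR adjusted p = 0.257), and it was 0.66 (adjusted p = 0.0214) without control replicate 3 and 0.25 (0.513) without control replicate 1.

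Gbp6 (ENSMUSG00000104713, chr5:105270702-105293698, minus strand) had the largest fold change of the 10 and the widest spread. It had 5.02, 14.96 and 7.14 CPM in knockout replicates 1, 2 and 3, against 1.11, 5.90 and 4.34 CPM in control replicates 1, 2 and 3, with 18 reads in control replicate 1. Knockout replicate 2 stood above the other 5 libraries and control replicate 1 below them. Its log2 fold change was 1.24 (SE 0.56, edgeR adjusted p = 0.21), with a 95% interval of the ratio from 0.981 to 5.69. It was 0.65 without knockout replicate 2, 1.77 without control replicate 2 and 0.63 with the sex term. Of its 50-base windows 90.2% also occur in transcripts of another annotated gene, Gm43302, which has no counts under that symbol. How reads that match both genes were treated was not stated, so what the Gbp6 counts measure is uncertain.

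Gbp3 and Gbp7 (chr3:142560026-142573209 and chr3:142530342-142550149, both on the plus strand) are neighbours of Gbp5, and Gbp7 is known in mouse macrophages to aid assembly of the NADPH oxidase. Gbp3 had 59.6, 70.3 and 55.2 CPM in knockout replicates 1, 2 and 3, against 48.8, 61.0 and 59.7 CPM in control replicates 1, 2 and 3. Gbp7 had 78.8, 79.9 and 84.7 CPM in knockout replicates 1, 2 and 3, against 62.9, 74.7 and 93.1 CPM in control replicates 1, 2 and 3. Both sets overlapped. Their 95% intervals of the ratio ran from 0.912 to 1.31 for Gbp3 and from 0.864 to 1.29 for Gbp7 (edgeR adjusted p = 0.538 and 0.755).

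Irgm1 (ENSMUSG00000046879, chr11:48861968-48871683, minus strand), the member tied to stem cell quiescence, did not pass the test. It had 68.3, 83.4 and 79.8 CPM in knockout replicates 1, 2 and 3, against 67.7, 62.2 and 71.8 CPM in control replicates 1, 2 and 3. Knockout replicates 2 and 3 lay above every control, while knockout replicate 1 lay inside the control range. The log2 fold change was 0.20 (SE 0.09, edgeR adjusted p = 0.211, n = 3 each). The 95% interval of the ratio ran from 0.997 to 1.33.

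The other IRGM genes lie side by side on chromosome 11 and overlap in the annotation. Irgm2 (chr11:58199618-58222782, plus strand), whose protein resides at the Golgi, had 35.7, 36.5 and 41.0 CPM in knockout replicates 1, 2 and 3, against 26.9, 26.6 and 38.6 CPM in control replicates 1, 2 and 3. Igtp (chr11:58199556-58207591, plus strand), whose protein sits on the endoplasmic reticulum, had 27.4, 33.3 and 38.1 CPM in knockout replicates 1, 2 and 3, against 25.4, 28.6 and 41.8 CPM in control replicates 1, 2 and 3. In both genes control replicate 3 was the highest control and within or above the knockout range. The log2 fold changes were 0.30 for Irgm2 (SE 0.15) and 0.05 for Igtp (SE 0.19), with edgeR adjusted p of 0.25 and 0.91. Without control replicate 3 they were 0.50 (adjusted p = 0.0243) and 0.28 (0.284). Of the Igtp windows 12.3% also occur in Irgm2 transcripts, and of the Irgm2 windows 6.29% in Igtp transcripts.

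Iigp1 (ENSMUSG00000054072, chr18:60376027-60392634, plus strand), also called Irga6, is the effector IRG that coats the vacuole of Toxoplasma. It had 12.6, 13.0 and 21.9 CPM in knockout replicates 1, 2 and 3, against 14.8, 13.5 and 29.7 CPM in control replicates 1, 2 and 3. Replicate 3 was the highest library in each group, and the groups overlapped. The log2 fold change was −0.29 (SE 0.33, edgeR adjusted p = 0.634), with a 95% interval of the ratio from 0.487 to 1.37, and it turned to 0.15 without control replicate 3 and to 0.22 with the sex term.

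**Figure D2:**
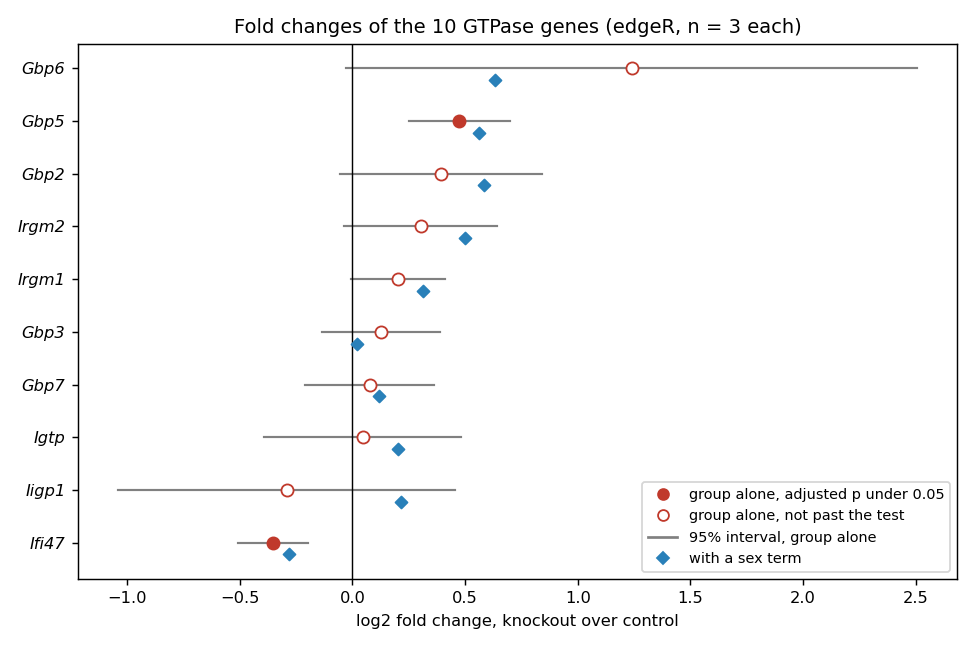
Log2 fold change of each GTPase gene, knockout over control, on the horizontal axis; circles are the fit by group alone (filled where the edgeR adjusted p was under 0.05) with 95% intervals, and diamonds are the fit with a sex term. Gbp5 at 0.48 and Ifi47 at −0.35 are the filled circles, and Iigp1 is the gene whose diamond (0.22) lies on the other side of 0 from its circle (−0.29).

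The libraries varied within each group as well as between the groups. Control replicate 3 was the highest control for 8 of the 10 genes and the highest of all 6 libraries for 4 of them (Gbp7, Igtp, Iigp1 and Ifi47). Knockout replicate 1 was the lowest knockout library for 7 of the 10. The summed level of the 10 genes was 448.5, 491.2 and 510.1 CPM in knockout replicates 1, 2 and 3, against 405.9, 429.4 and 528.6 CPM in control replicates 1, 2 and 3. Control replicate 3 thus had the highest sum, and the groups overlapped. The 5 GBP genes summed to 237.7 ± 12.4 CPM in knockout and 201.1 ± 35.01 CPM in control libraries, and the 5 IRG genes to 245.6 ± 21.4 and 253.5 ± 33.2 CPM in the same order (SD, n = 3 each). The centred log2 profile of the summed level over the 6 libraries was compared with those of tested symbols outside the 10, passing over predicted genes. It was closest to Haus6, Med20, Pus3, Rnf31 and Lime1, with root mean square differences of 0.034, 0.0352, 0.0376, 0.0412 and 0.0421 on the log2 scale. Gm6548, passed over by that rule, was closer (0.0238).

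Of 20 further genes of the same and related GTPase families, 17 were tested and none passed in edgeR. At an unadjusted p under 0.05 there were 4, limma-voom called 0, and DESeq2 called 2, Gbp4 and Gbp9, as did edgeR with no filter on low counts. Their median log2 fold change was 0.23, with 12 of 17 positive. Counts of Gvin1 and Gm4070, which are among the 17, are identical in every library. Of the GBP genes on chromosome 5, grouped by position after their values were seen, Gbp10 was below the filter. It had 0.286 ± 0.218 CPM in knockout and 0.352 ± 0.158 CPM in control libraries. With no filter on low counts, 5 of 6 values on chromosome 5 were positive. The 5 tested (Gbp4, Gbp6, Gbp8, Gbp9 and Gbp11) all had positive values, from 0.97 to 1.90. The upper end is Gbp11, with 9, 150 and 24 reads in knockout replicates 1, 2 and 3, against 3, 46 and 3 reads in control replicates 1, 2 and 3. Its log2 fold change was 0.57 without knockout replicate 2, 3.86 without control replicate 2 and 0.83 with the sex term.

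Gbp9 had 12.3, 22.9 and 22.2 CPM in knockout replicates 1, 2 and 3, against 7.44, 10.4 and 11.4 CPM in control replicates 1, 2 and 3. No knockout library fell within the control range. The log2 fold change was 0.97 (SE 0.26, edgeR adjusted p = 0.0532), and the adjusted p was 0.0196 without knockout replicate 1, 0.0607 to 0.18 without any other library and 0.44 with the sex term. Gbp4 had 9.30, 18.4 and 18.8 CPM in knockout replicates 1, 2 and 3, against 3.50, 6.64 and 10.5 CPM in control replicates 1, 2 and 3 (log2 fold change 1.18, SE 0.39, edgeR adjusted p = 0.101). Its adjusted p was 0.0413 without control replicate 3, up to 0.261 without another library and 0.492 with the sex term. Gbp4, Gbp8 and Gbp9 overlap on the same strand, so their counts may not be independent. Control replicate 1 was the lowest library for Gbp4, Gbp8, Gbp9 and Gbp11 as it was for Gbp6.

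None of the 3 family genes on chromosome 18 passed, and all 3 values were negative, of which that of Iigp1 turned positive with the sex term and without control replicate 3. Gm4951 and F830016B08Rik, chosen after their values were seen as the listed neighbours of Iigp1, had log2 fold changes of −0.79 (SE 0.36) and −1.30 (SE 0.62) with edgeR adjusted p of 0.22 and 0.242. Around Irgm1 and Ifi47 on chromosome 11, values of 7 family genes ran from −0.94 to 1.09 with a median of 0.02. The paralogues Tgtp1 (4.81 ± 1.08 CPM in knockout, 6.35 ± 2.57 CPM in control libraries) and Tgtp2 (22.5 ± 3.76 and 22.2 ± 4.86 CPM in the same order), GTPases induced by interferon gamma in T cells, had log2 fold changes of −0.39 and 0.02. Gbp2b, the chromosome 3 neighbour of Gbp2, had 0.846, 1.82 and 3.85 CPM in knockout replicates 1, 2 and 3, against 0.123, 0.853 and 5.65 CPM in control replicates 1, 2 and 3, and no direction could be read at that spread. Gbp10 had 1 to 15 reads per library and was below the filter.

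**Figure D3:**
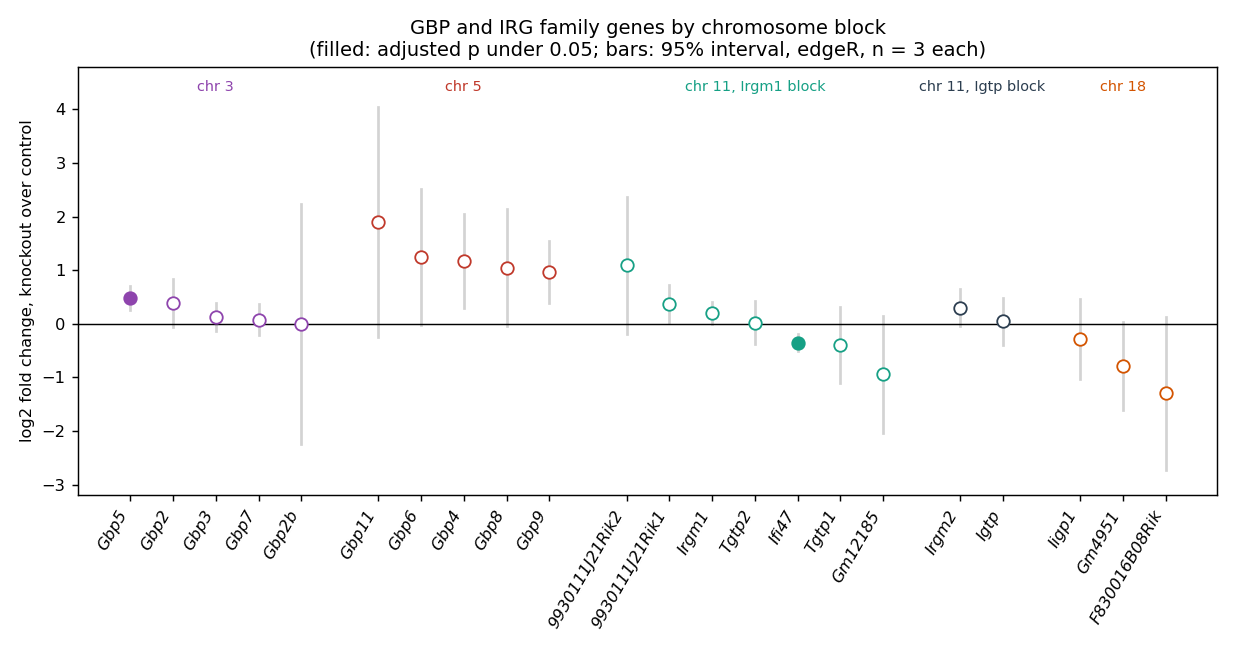
Log2 fold changes (knockout over control, vertical axis) with 95% intervals for the GBP and IRG family genes tested, grouped by chromosome block and ordered by value within each; filled circles have an edgeR adjusted p under 0.05. All 5 values on chromosome 5 lie above 0 and all 3 on chromosome 18 below it, none of them filled, while chromosome 3 holds Gbp5 and the Irgm1 block holds Ifi47.

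The pathway above the GTPases was read from lists of interferon and interleukin ligands, receptors, transcription factors and inhibitors, with partners of GTPase action and stem cell quiescence genes beside them. Over these lists and the further GTPases, 84 genes were tested, of which 3 were higher, 2 lower and 79 did not pass, against the background of 3.85% and 4.58% of all symbols. Their median log2 fold change was 0.13, and 60 of 84 were positive. With the sex term none of the 84 passed in edgeR, and 9 had an unadjusted p under 0.05.

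Of 14 ligand genes, 4 were tested and 1 was higher. Interferon gamma itself (Ifng) had 9, 8 and 6 reads in knockout replicates 1, 2 and 3, against 6, 7 and 4 reads in control replicates 1, 2 and 3, and was below the filter. Ifnb1, which encodes interferon beta, had 1 read in control replicate 2 and none in the other 5 libraries, where a count of 0 allows up to 3 reads, or 0.12 to 0.242 CPM by library, for counting error only. Il12b, which encodes the p40 chain of interleukin-12, an inducer of interferon gamma, had 22, 25 and 7 reads in knockout replicates 1, 2 and 3, against 2, 1 and 2 reads in control replicates 1, 2 and 3. All knockout libraries were above the controls, at a very low level (log2 fold change 3.34, SE 0.60, edgeR adjusted p = 0.0158, and 0.0665 without knockout replicate 2). With the filter of 1 CPM or more in 3 or more libraries, Il12b was not tested. Il12a, for the other chain of interleukin-12, went the other way with overlapping groups. It had 34.2 ± 8.48 CPM in knockout and 47.1 ± 5.56 CPM in control libraries (log2 fold change −0.45, SE 0.17, edgeR adjusted p = 0.148).

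Receptor and kinase genes did not pass: of 7 tested, edgeR called 0, DESeq2 0 and limma-voom 0, and 2 had an unadjusted p under 0.05. These were the receptor chains for interferon gamma. Ifngr1 had 316.7 ± 12.2 CPM in knockout and 267.4 ± 29.7 CPM in control libraries (log2 fold change 0.24, SE 0.09, edgeR adjusted p = 0.121), and Ifngr2 had 50.1 ± 1.87 and 41.9 ± 3.25 CPM in the same order (0.25, SE 0.08, adjusted p = 0.088). The groups did not overlap for either gene, nor for Jak2 (higher in knockout libraries) and Jak1 (lower). Among all symbols tested, 15.1% were higher and 16.1% lower without overlap.

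Of 11 transcription factor genes, Stat2, a subunit of the type I interferon factor ISGF3, was higher in edgeR and 10 did not pass. Stat2 had 79.6, 89.3 and 93.2 CPM in knockout replicates 1, 2 and 3, against 65.2, 71.9 and 69.7 CPM in control replicates 1, 2 and 3 (log2 fold change 0.34, SE 0.08, edgeR adjusted p = 0.0338). Its adjusted p was 0.118, 0.0911, 0.108 and 0.0556 without knockout replicate 2, knockout replicate 3, control replicate 1 and control replicate 3, and 0.393 with the sex term. Ciita had the largest log2 fold change of the list (0.79, SE 0.24, edgeR adjusted p = 0.0806), with overlapping groups. It was 0.59 to 0.99 with any 1 library left out (edgeR adjusted p 0.0452 to 0.216) and 0.74 with the sex term. DESeq2, and edgeR with no filter on low counts, called Ciita higher beside Stat2, and limma-voom called Stat2 alone. The factors Irf1, Irf8 and Irf9 had log2 fold changes of 0.12, 0.29 and 0.18, with overlapping groups. Without knockout replicate 2 these were 0.066, 0.052 and 0.067, and Irf8 was at 0.03 with the sex term. Inhibitor genes, among them Socs1 and Usp18, were 8 of 10 positive with a median of 0.14, and edgeR, DESeq2 and limma-voom each called 0 (1, 2 and 2 at an unadjusted p under 0.05).

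Among 18 partners of GTPase action, 1 was lower, 17 did not pass and 15 were positive. At an unadjusted edgeR p under 0.05 there were 9. Atg5, Atg12, Map1lc3a, Gabarap, Gabarapl2, Casp4 and Gsdmd were higher in knockout libraries without overlap, and Gabarapl1 alone lower. Among all symbols tested these shares were 15.1% and 16.1%. Gabarapl1, which encodes an ATG8-family protein that autophagy membranes carry, had 87.4, 94.9 and 86.6 CPM in knockout replicates 1, 2 and 3, against 122.9, 118.9 and 133.3 CPM in control replicates 1, 2 and 3. All knockout libraries were below all controls (log2 fold change −0.48, SE 0.07, edgeR adjusted p = 0.00752), and this call held without any 1 library (adjusted p 0.0124 to 0.0328) but not with the sex term (−0.41, adjusted p = 0.158). The 6 inflammasome genes of the list, downstream of the GBPs, did not pass, with log2 fold changes of 0.85 for Nlrp3, 0.30 for Casp4, 0.17 for Gsdmd, 0.09 for Pycard, 0.06 for Casp1 and 0.03 for Il1b. DESeq2, and edgeR with no filter on low counts, called Nlrp3 and the autophagy gene Gabarap higher.

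Of 17 genes of stem cell quiescence and cycling, 1 was higher, 1 was lower and 15 did not pass. Cdkn1b, which encodes the cyclin-dependent kinase inhibitor p27, had 92.3 ± 7.87 CPM in knockout and 70.8 ± 2.06 CPM in control libraries (log2 fold change 0.39, SE 0.07, edgeR adjusted p = 0.0203). It was above the threshold without knockout replicate 2 (0.0714), control replicate 1 (0.0569) or control replicate 2 (0.0514). The cyclin gene Ccnd2 had 156.7 ± 9.93 CPM in knockout and 245.1 ± 16.5 CPM in control libraries (log2 fold change −0.64, SE 0.07, edgeR adjusted p = 0.00373). For Mki67, a proliferation marker, it was 0.03 (SE 0.09).

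**Figure D4:**
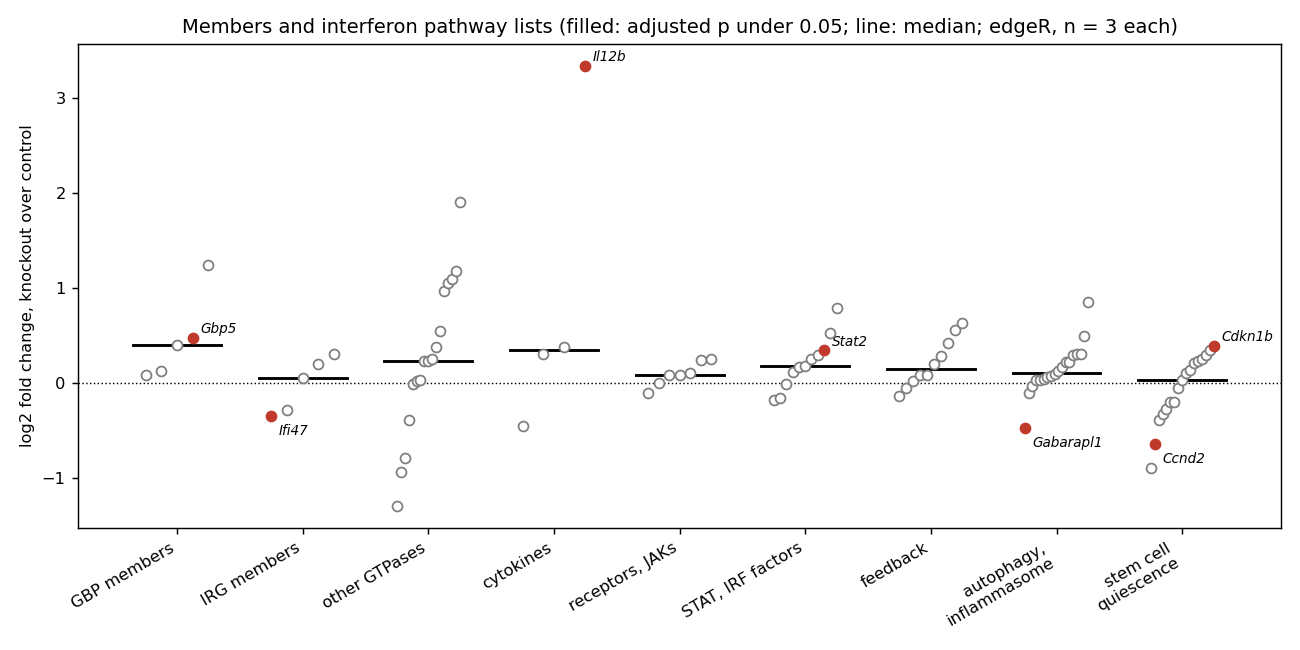
Log2 fold changes (knockout over control, vertical axis) of every tested gene in the member and pathway lists, 1 column per list, with lines at the medians; filled, named points have an edgeR adjusted p under 0.05. The medians of the 9 lists lie between 0.03 (stem cell quiescence) and 0.39 (GBP members), and 7 points are filled.

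Markers of other cell types differed between the same libraries, and macrophages and neutrophils can express GBPs and IRGs. Monocyte, macrophage and dendritic cell markers (5 of 11 tested higher) summed to 2649 to 3050 CPM in knockout and 1520 to 1903 CPM in control libraries. Neutrophil markers (4 of 11 higher) summed to 7169 to 9189 and 2967 to 5742 CPM in the same order, and erythroblast markers (5 of 6 higher) to 65.8 to 192.3 and 11.5 to 23.4 CPM. B and plasma cell markers (1 of 6 lower, Cd79b) summed to 46.1 to 54.4 CPM in knockout and 52.1 to 66.0 CPM in control libraries. T and NK cell markers, from cells that make interferon gamma, summed to 252.7 to 320.8 and 199.6 to 280.1 CPM in the same order, with 0 of 10 called by edgeR or limma-voom, 1 by DESeq2 and 2 at an unadjusted p under 0.05. Nkg7 made up 77.1% to 88.6% of that sum. Without it the T and NK cell markers summed to 36.5 to 40.2 CPM in knockout and 45.02 to 50.04 CPM in control libraries, lower and without overlap. The largest part of that remainder was Lck, with 14.4 ± 0.44 CPM in knockout and 23.5 ± 6.07 CPM in control libraries. The list did not move as 1: of the 10 tested, 5 log2 fold changes were positive and 5 negative. Cd3e, Cd3d, Cd3g and Cd8a were among the positive ones (0.52, 0.43, 0.60 and 0.51). Endothelial and stromal markers (1 of 4 lower, Emcn) summed to 94.6 to 125.3 CPM in knockout and 118.1 to 132.1 CPM in control libraries. Leaving out the most abundant gene, a step added after the values were seen, also ended the overlap for the B and plasma cell list (without Sdc1, 23.4 to 25.6 CPM in knockout and 33.8 to 38.2 CPM in control libraries) and the endothelial and stromal list (without Pecam1, 7.38 to 9.31 and 10.9 to 13.2 CPM in the same order). The other 3 lists stayed higher in all knockout libraries without theirs. The marker calls come from fits by group alone. Median log2 fold changes of the monocyte, neutrophil and erythroblast lists were 0.71, 0.67 and 2.67, and 0.50, 0.78 and 3.14 with the sex term. For the B cell, T and NK cell and endothelial lists they were 0.43, 0.12 and −0.39, and 0.07, −0.03 and −0.33 with the sex term. No marker with a row was at 0 in every library, and Pax5 in control replicate 3 and Lepr in control replicate 1 were the zeros. The part of these cell types in the values of Gbp5, Ifi47 and the pathway genes was not tested.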

How the data were processed

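The authors deposited 1 table of raw, whole-number counts, with gene symbols in rows and libraries in columns. The submitters' processing notes name STAR and mm10, and the labels' protocols give poly(A) selection and a strand-specific kit. The sources used here do not give how reads were assigned to genes (tool, annotation, strand). Libraries were grouped by genotype label, 3 against 3.

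The test was that of edgeR 4.0.16 (R 4.3.3): filterByExpr (minimum count 10, minimum total 15), TMM scaling, a quasi-likelihood F test with group as the sole term, and Benjamini-Hochberg adjustment over all 13679 symbols tested (threshold 0.05). SE is the log2 fold change over the root of F. CPM were computed here from the deposited counts. All pairs of libraries differed by more than sampling noise (chi-square of at least 10.7 per degree of freedom). Alternatives were DESeq2 size factors, DESeq2 1.42.0, limma-voom (limma 3.58.1), other filters, the replicate number as a block, a sex term and each library left out. The scripts were tested on simulated counts. Positions and lengths are from GENCODE M21 and promoters from RefSeq, both on GRCm38 (mm10).

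The members and lists were chosen with earlier results of these data known, and 2 genes of the lists are not reported here. All 10 members are named; of the pathway lists, the genes past the threshold and a fixed set of interferon receptors, factors and paralogues; for likeness, the 5 nearest, passing over predicted genes. Others were chosen after their values were seen, such as Gbp11, Ciita, Il12a, Jak1, Jak2, Gabarap and further partners of GTPase action. So were the inflammasome genes, Mki67, Lck and the chromosome blocks.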

Additional observations from a re-analysis of the deposited data

How the results depend on the processing

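Gbp5 and Ifi47 were the members called as reported and with DESeq2 size factors, with no filter, with a stricter filter (1 CPM or more in 3 or more libraries), with DESeq2 and with limma-voom. With the sex term, 0 members were called higher and 0 lower (4 of 10 at an unadjusted edgeR p under 0.05), and all genes called numbered 7 higher and 36 lower, against 526 and 626. With 1 library left out, members called numbered 0 to 3 higher and 0 to 1 lower, all genes called 123 to 438 higher and 181 to 524 lower, and pathway genes called 0 to 5 higher and 2 lower. DESeq2 called 833 genes higher. Pathway genes higher numbered 8 with no filter and 8 with DESeq2, and with the sex term 0 were higher and 0 lower (9 of 84 at an unadjusted p under 0.05). The cause of these shifts was not tested.

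The fit with the replicate number as a block called 1169 genes higher and 1003 lower, 3 members higher (Gbp2, Gbp5 and Gbp6) and 17 pathway genes higher. Libraries that share a number share nothing else in the labels, so the numbers were not taken as pairs. Deviations of same-numbered libraries from their group means correlated at 0.357, 0.00307 and 0.381. Knockout replicate 1 with control replicate 3 gave −0.375, and knockout replicate 3 with control replicate 1 gave −0.365. Knockout replicate 2 correlated more with control replicate 1 (0.0376) than with its own number. Whether same-numbered libraries were handled together was not tested.

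Signs turned with the sex term for Iigp1 (0.22), Tgtp1 (0.15) and Gbp2b (1.29), and for Gbp2b also with limma-voom (0.98) and the block (0.52). Leaving out 1 library gave ranges across 0 for Gbp7 (−0.047 to 0.23), Igtp (−0.09 to 0.28), Iigp1 (−0.58 to 0.15), Tgtp2 (−0.084 to 0.21) and Gbp2b (−0.64 to 1.93). The median of the 10 members ran from 0.11 to 0.27 over these fits. With the sex term that median was 0.26, against 0.17 by group alone. Gbp2, Gbp7, Irgm1, Irgm2 and Igtp then had larger log2 fold changes (0.58, 0.12, 0.31, 0.50 and 0.20). Those of Gbp3 and Gbp6 were smaller (0.02 and 0.63). Depth limits Gbp6 most among the members, with 18 reads in control replicate 1.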
